A study of Mus musculus with 6 samples.

Results

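The genes described are the soluble inositol phosphate and pyrophosphate kinases of the mouse and 1 phosphatase of the same substrates. They are Ipmk, Itpkb, Itpkc, Itpk1, Ippk, Ip6k1, Ip6k2, Ppip5k1, Ppip5k2 and Minpp1, taken by gene symbol from the count files. All 10 were present as 1 entry each among 23282 entries, of which 14404 had a count in at least 1 library. The study sequenced RNA of regulatory T cells (Treg), CD4 T cells that hold back immune responses, sorted from C57BL/6 spleen and left unstimulated. It compared 3 wild type libraries with 3 libraries labelled IPMK cKO, a conditional knockout of Ipmk. The labels call the libraries biological replicates. They do not give the Cre driver, the deleted part of Ipmk, the age of the mice or whether a library is 1 animal. The p-values thus cover the spread between these libraries alone, part of which may be technical. The libraries came from a kit that sequences the 3′ end of polyadenylated transcripts.

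Inositol phosphate signalling begins when phospholipase C cuts a membrane lipid and releases inositol trisphosphate (IP3), which opens calcium channels of the endoplasmic reticulum. In T cells this follows engagement of the antigen receptor. IP3 is then phosphorylated step by step. The IP3 3-kinases Itpkb and Itpkc and the multikinase Ipmk add phosphates to IP3 and its products, Itpk1 acts on intermediates, and Ippk completes the fully phosphorylated ring, IP6. The IP6 kinases Ip6k1 and Ip6k2 and the PPIP5 kinases Ppip5k1 and Ppip5k2 build inositol pyrophosphates from it. Minpp1 removes phosphates from IP6 and related compounds. Itpkb is known in lymphocytes for the product that restrains signalling downstream of phosphoinositide 3-kinase.

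The members belong to several protein families, and motifs known from some of these were searched for in the coding sequences. Ipmk, the IP3 3-kinases and the IP6 kinases are 1 family, whose signature for binding inositol phosphates is a proline, an aspartate, a lysine and a glycine at fixed distances. The stretch coding for it is printed for each of the 5 genes that hold it, 5′ to 3′ on the coding strand, with the codons of those residues in capitals, because it is what Ipmk shares with its relatives.
Ipmk: CCCtgtataatgGACgtgAAGattGGG
Itpkb: CCCtgcgtgatgGACtgcAAGatgGGT
Itpkc: CCCtctatcatgGACtgcAAGatgGGC
Ip6k1: CCCtgtgtgctgGACttgAAGatgGGT
Ip6k2: CCTtgtgtcctgGACctcAAGatgGGC
All are exonic and within the coding sequence, on the mouse build mm10 (GENCODE M21). The Ipmk stretch codes for residues 124 to 132 of 397 and lies in exon 4 of 6 at chr10:71372752-71372778 on the plus strand. The others lie at chr1:180413969-180413995 (Itpkb, exon 4, plus), chr7:27216957-27216983 (Itpkc, exon 3, minus), chr9:108044766-108044792 (Ip6k1, exon 5, plus) and chr9:108804583-108804609 (Ip6k2, exon 5, plus). Between pairs of these genes 19 to 23 of the 27 bases were equal, with 23 between Itpkb and Ip6k1. Of 21591 coding genes searched through 1 coding sequence each, 0.338% had a match to this spacing of residues.

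Another motif, arginine and histidine followed at fixed distances by arginine and proline, marks the histidine phosphatase fold. It was found once each in Minpp1 and in both PPIP5 kinases, which are known to carry a phosphatase domain beside their kinase domain. The stretches printed are the matches to this motif, which alone do not show a shared fold. Their capitals again mark the codons of the fixed residues.
Ppip5k1: CGTCATggagatAGAaccCCA
Ppip5k2: CGACATggggatCGAacaCCG
Minpp1: CGTCACggcaccCGCtacCCT
They are at chr2:121343174-121343194 (exon 11, minus), chr1:97746453-97746473 (exon 11, minus) and chr19:32486202-32486222 (exon 1, plus), all coding. In Ppip5k1 the stretch codes for residues 399 to 405 of 1436. The PPIP5 kinases had 16 of the 21 bases in common, and Minpp1 had 11 in common with Ppip5k1 and 10 with Ppip5k2. The motif was found in 0.366% of the coding genes. Neither motif was found in Itpk1 or Ippk, which says only that these residues do not stand at these distances there.

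Libraries held 7464546 to 8980395 counts, of which 5287300 to 7130660 lay outside the ribosomal RNA precursor Rn45s, which took 16.7% to 32.1%. The 10 genes together had 1646 to 2679 counts per library. Levels are given as CPM, counts scaled to a common library size after TMM normalisation, so that 1 count was worth 0.101 to 0.141 CPM. The Treg and CD4 T cell markers Foxp3, Il2ra, Ctla4, Ikzf2, Cd4, Cd3e and Cd3g had counts in every library, with Foxp3 lowest in wild type replicate 1 (86 counts, against 279 to 811 elsewhere). Cd8a, Ncr1 and Klrd1 were at 0 in all libraries. From the same CD8 and NK lists, Cd8b1 had 15 to 95 tags per library. Klrb1c had 66 tags in wild type replicate 1, 1 in IPMK cKO replicate 3 and 0 elsewhere. Summed CD8 markers (2 genes) ranged from 7.82 to 12.2 CPM across wild type and from 2.11 to 8.62 CPM across knockout libraries, B cell markers (3) 5.47 to 14.2 and 7.10 to 13.1, myeloid markers (6) 0.602 to 8.20 and 0 to 14.2, NK markers (3) 0 to 7.94 and 0 to 0.101, and red cell markers (5) 0.120 to 56.3 and 0 to 16.7. Their part in the results was not tested. On principal components, IPMK cKO replicate 1 lay far from the others along the first axis (38.7%) and wild type replicate 1 along the second (24.2%). In bulk RNA, fewer cells of a type and less RNA per cell cannot be told apart.

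Ipmk, the targeted gene (ENSMUSG00000060733, chromosome 10, 71347763 to 71433327, plus strand), was at 15.5, 10.5 and 10.3 CPM in wild type replicates 1 to 3, against 0.422, 2.74 and 0 CPM in the knockouts. All IPMK cKO libraries lay below all wild type libraries. IPMK cKO replicate 2, with 21 tags, kept the highest level of the knockout group, against 3 and 0 tags in the others. The count of 0 in replicate 3 allows up to 0.304 CPM (3 counts, counting error only). The log2 fold change, IPMK cKO over wild type, was −3.51 (SE 1.75, 95% interval −7.36 to 0.35) with an edgeR adjusted p of 0.999897 over the 10475 genes tested. Leaving out IPMK cKO replicate 2 gave −5.85. Tags at the 3′ end report a deletion only where it removes or lowers that end of the transcript, so these values describe transcript abundance and not protein or activity.

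In wild type Treg, Ip6k1 and Ppip5k2, both of which make inositol pyrophosphates, had the highest levels of the set. Ip6k1 was at 101 ± 22.6 CPM (SD, n = 3, as for all levels that follow), above 85.2% of the genes tested. Ppip5k2 was at 70.8 ± 11.9 CPM. The ranges of these genes overlapped across libraries, although Ip6k1 was the higher within each wild type library. Next came Itpk1 at 31.4 ± 5.85 CPM and Ip6k2 at 25.2 ± 5.31 CPM. Their ranges overlapped too, with Itpk1 the higher within each wild type library. Every wild type Itpk1 level was below every wild type Ppip5k2 level. Ipmk (12.1 ± 2.95 CPM), Ippk (11.8 ± 3.94), Itpkb (10.3 ± 11.2), Minpp1 (10.3 ± 3.68), Itpkc (7.33 ± 6.80) and Ppip5k1 (3.92 ± 2.21) formed a low group in which each neighbour in the order overlapped with the next. All Ipmk levels in wild type lay below all Ip6k2 levels. These levels are not divided by length, since a 3′ end kit is designed to read tags near the end of a transcript whatever its length. Wild type replicate 2 is an exception to the grouping, with an Itpkb level (22.1 CPM) inside the range of Ip6k2.

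Divided by the length of the longest annotated transcript, the same 4 genes led, with Ip6k1 at 22.1 ± 4.97 CPM per kb, Ppip5k2 at 11.4 ± 1.90, Itpk1 at 10.8 ± 2.01 and Ip6k2 at 8.93 ± 1.88. On that scale every Ip6k1 level in wild type lay above every Ppip5k2 level, so these ranges did not overlap. Minpp1 was next at 3.93 ± 1.41 CPM per kb, Ipmk was the eighth at 2.22 ± 0.542 and Ppip5k1 was again the lowest at 0.709 ± 0.400.

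**Figure D1:**
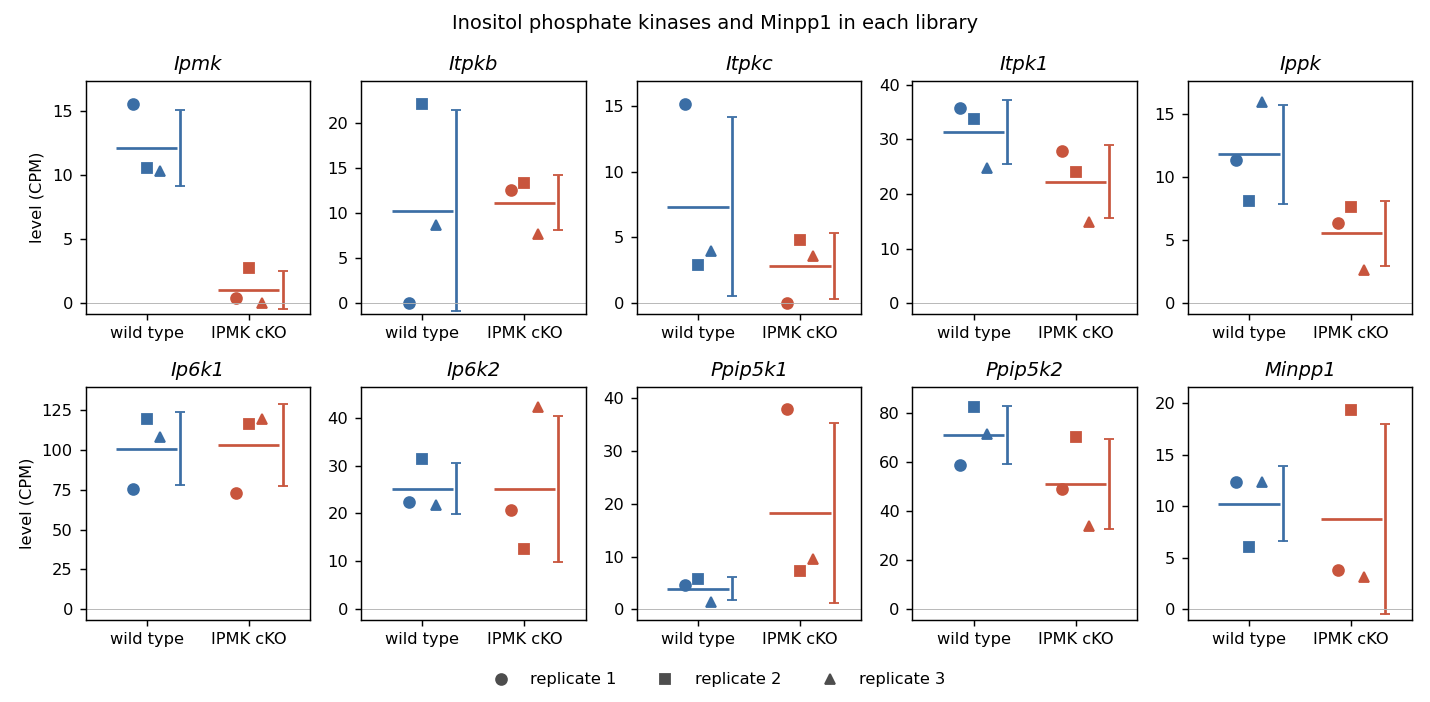
Level of each of the 10 genes in CPM (vertical axis, linear, own scale per panel) in wild type (blue) and IPMK cKO (red) libraries; symbols mark replicates 1 to 3, horizontal lines the mean and bars 1 SD to either side, which can reach below 0. Ipmk lies between 10.3 and 15.5 CPM in wild type but between 0 and 2.74 CPM in the knockouts, while Ip6k1 covers nearly the same range in both groups.

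None of the 10 genes passed edgeR's quasi-likelihood test in either direction (Benjamini-Hochberg adjusted p of 0.05), and 0% of all genes tested were called higher and 0% lower. Without adjustment, p was under 0.05 for 143 genes with higher and 125 with lower estimates, and for 0 of the 10. DESeq2 called 4 genes, 1 higher and 3 lower, none of them a member. Its unadjusted p was 0.0130 for Ipmk and 0.0265 for Ppip5k1, and its adjusted p was 0.875 and 0.989. In 2 members, Ipmk and Ippk, all IPMK cKO libraries lay below all wild type libraries, against 5.66% of all genes tested. In 1 member, Ppip5k1, they lay above, against 4.74%. Ipmk is the targeted gene, and of the 9 other members 1 lay below. Apart from Ipmk, 3 estimates were above 0 and 6 below, with a median log2 fold change of −0.23 beside 0.03 for all genes tested. Without IPMK cKO replicate 1 that median was 0.03, so its direction rests on 1 library.

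The IP3 3-kinases varied more between libraries of 1 group than between the groups. Itpkb (chromosome 1, 180330485 to 180424802, plus strand) was at 0, 22.1 and 8.74 CPM in the wild type libraries, against 12.5, 13.3 and 7.71 CPM in the knockouts. The count of 0 in wild type replicate 1 allows up to 0.361 CPM, so the lowest and the highest Itpkb level of all 6 libraries were both in wild type. Its log2 fold change was 0.12 (SE 1.43), and −0.47 without wild type replicate 1. Itpkc (chromosome 7, 27207172 to 27228661, minus strand) was at 15.2, 2.87 and 3.95 CPM in the wild type libraries, against 0, 4.83 and 3.55 CPM in the knockouts, where 0 allows up to 0.422 CPM. Wild type replicate 1 thus had the highest Itpkc level and no Itpkb tag. The log2 fold change of Itpkc was −1.38 (SE 1.84), −0.28 without wild type replicate 1 and 0.30 without both libraries numbered 1. The last 1273 bases of Itpkc exons are shared with exons of BC024978 on the opposite strand, a gene with 0, 20 and 26 tags in the wild type libraries, against 0, 30 and 2 in the knockouts. Counting is not stated to use strand, so tags of such pairs cannot be told apart. Added together, Itpkb and Itpkc gave 15.2, 25.0 and 12.7 CPM in the wild type libraries, against 12.5, 18.2 and 11.3 CPM in the knockouts, and these sums overlapped.

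Itpk1 and Ippk, which act between IP3 and IP6, had estimates below 0. Itpk1 (chromosome 12, 102568582 to 102704930, minus strand) was at 35.7, 33.8 and 24.8 CPM in the wild type libraries, against 27.9, 24.0 and 14.8 CPM in the knockouts. The groups overlapped and the log2 fold change was −0.50 (SE 0.54). Ippk (chromosome 13, 49421249 to 49464573, plus strand) was at 11.3, 8.06 and 15.9 CPM in the wild type libraries, against 6.33, 7.58 and 2.64 CPM in the knockouts. Its groups did not overlap, but wild type replicate 2 and IPMK cKO replicate 2 were close, and the log2 fold change was −1.09 (SE 1.09, 95% interval −3.50 to 1.31). The estimate stayed below 0 in all 15 alternative settings, from −1.43 to −0.76. Ippk shares 315 exon bases near its 3′ end with the opposite-strand gene Cenpp, which had 0 tags in all libraries.

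The IP6 kinases showed no shift between the groups that these libraries could resolve. Ip6k1 (chromosome 9, 108002501 to 108048782, plus strand) was at 75.6, 119 and 108 CPM in the wild type libraries, against 73.3, 117 and 119 CPM in the knockouts. Replicate 1 had the lowest level in either group, and the ranges nearly coincided. Its log2 fold change was 0.03 (SE 0.34), with a 95% interval from −0.72 to 0.78 that was the narrowest of the 10 genes. Ip6k2 (chromosome 9, 108783796 to 108806337, plus strand) was at 22.4, 31.3 and 21.8 CPM in the wild type libraries, against 20.7, 12.5 and 42.1 CPM in the knockouts. The knockout group held both the lowest and the highest Ip6k2 level. The log2 fold change was 0.00 (SE 0.61, 95% interval −1.36 to 1.35), and −0.60 without IPMK cKO replicate 3.

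The PPIP5 kinases, which act on the same substrates, had estimates of opposite sign. Ppip5k1 (chromosome 2, 121310561 to 121355396, minus strand) was at 4.57, 5.74 and 1.46 CPM in the wild type libraries, against 37.9, 7.19 and 9.54 CPM in the knockouts. All knockout libraries lay above all wild type libraries, and replicate 1 lay far above the other two. The ratio of means was 4.64 and the log2 fold change 2.21 (SE 1.09, 95% interval −0.19 to 4.61). Without IPMK cKO replicate 1 the log2 fold change was 1.08, and 1.22 without both libraries numbered 1. The 3′ end of Ppip5k1 shares 272 exon bases with Map1a on the opposite strand. Map1a had 38, 24 and 3 tags in the wild type libraries, against 106, 9 and 135 in the knockouts, beside 38, 42 and 14 and then 269, 55 and 94 tags of Ppip5k1. Whether tags of one were counted for the other was not tested.

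Ppip5k2 (chromosome 1, 97706048 to 97770411, minus strand), the more abundant of the pair, was at 58.7, 82.4 and 71.4 CPM in the wild type libraries, against 48.8, 70.0 and 33.7 CPM in the knockouts. The groups overlapped through replicate 2, and the log2 fold change was −0.48 (SE 0.39, 95% interval −1.35 to 0.39). Summed over both genes, PPIP5 kinase tags were 63.3, 88.1 and 72.8 CPM in the wild type libraries, against 86.7, 77.2 and 43.2 CPM in the knockouts, so the sum overlapped widely. Minpp1 (chromosome 19, 32485769 to 32515364, plus strand), the phosphatase, was at 12.4, 6.01 and 12.4 CPM in the wild type libraries, against 3.80, 19.3 and 3.15 CPM in the knockouts. Replicate 2 went against the other knockout libraries. The log2 fold change of Minpp1 was −0.23 (SE 1.11), and −1.59 without IPMK cKO replicate 2.

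**Figure D2:**
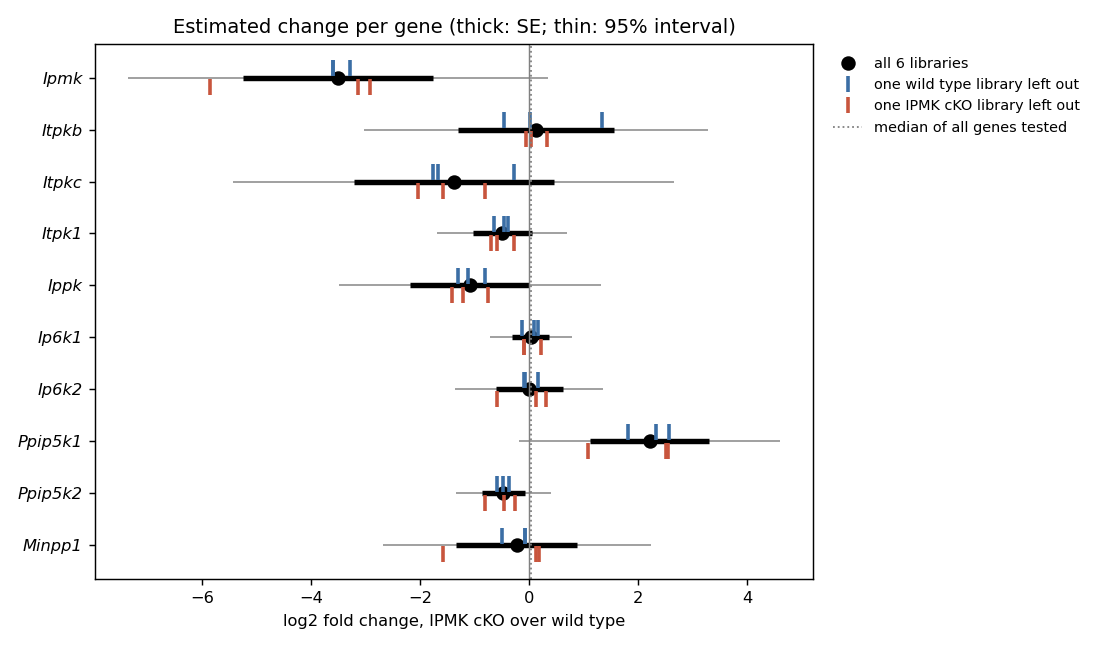
Log2 fold change of IPMK cKO over wild type (horizontal axis) for each gene, with all 6 libraries (black point), its SE (thick line) and 95% interval (thin line); ticks show the estimate with 1 wild type (blue) or 1 IPMK cKO (red) library left out. The interval of each gene includes 0. Ipmk, Itpkc, Itpk1, Ippk, Ppip5k1 and Ppip5k2 keep their sign in all such fits. The estimate of Ppip5k1 is 1.08 without IPMK cKO replicate 1.

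As a share of the tags of the 10 genes, Ip6k1 made up 35.3% ± 4.60 of wild type and 41.3% ± 9.39 of knockout tags (SD, n = 3 each). Ppip5k2 made up 24.9% ± 1.29 and 20.2% ± 5.52. The share of Ipmk was 6.18%, 3.27% and 3.70% in the wild type libraries, against 0.182%, 0.986% and 0% in the knockouts. The shares of Ip6k1 and Ppip5k2 spread less across the wild type than across the knockout libraries, and their groups overlapped. Ppip5k1 took 16.3% of the tags in IPMK cKO replicate 1 and 2.58% and 4.04% in the others. Ip6k1 took 50.4% in IPMK cKO replicate 3. The summed level of the 9 genes other than Ipmk was 236, 311 and 268 CPM in the wild type libraries, against 231, 275 and 236 CPM in the knockouts, and the groups overlapped.

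**Figure D3:**
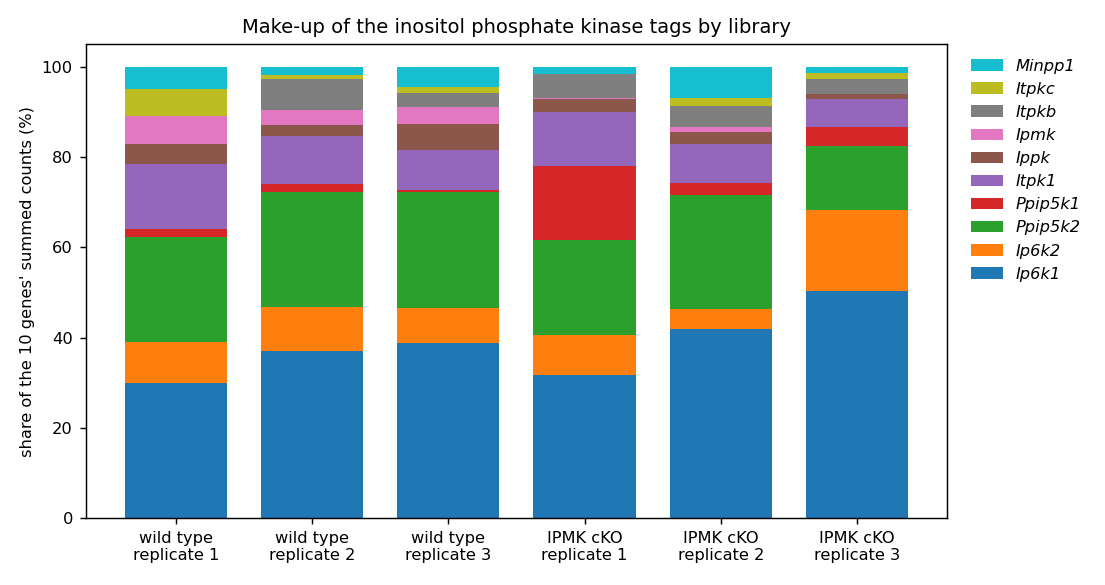
Share of each gene in the summed counts of the 10 genes (vertical axis, percent) in each library (bars). Ip6k1 and Ppip5k2 make up the largest shares in each wild type library, and the Ppip5k1 share is 16.3% in IPMK cKO replicate 1 against 0.523% to 4.04% in the other libraries.

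The close paralogs outside the set had few tags or none. Itpka, a brain-enriched IP3 3-kinase, had 7 tags in wild type replicate 2 and 0 elsewhere, and Ip6k3, known from muscle, had 0 in all libraries, which allows 0.304 to 0.422 CPM per library.

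Among genes of the phospholipase C family, 8 of 15 were abundant enough to test. The 8 take in the phospholipase C-like Plcl1 (log2 fold change 0.24, SE 0.94) and Plcl2 (0.13, SE 0.48), so they are not all sources of IP3. None of the 8 passed in either direction, with 5 estimates above 0 and 3 below. The median log2 fold change, set by Plcl1 and Plcl2 as the middle estimates, was 0.18. Its direction rests on IPMK cKO replicate 1, without which it was −0.15, and it was −0.06 without both libraries numbered 1. The smallest p-values were those of Plcb2 (log2 fold change 0.77, SE 0.52), Plcb4 (−1.23, SE 0.83), Plcd1 (−2.26, SE 2.58) and Plcd4 (1.72, SE 2.64). All 4 overlapped between the groups. Of the 3 IP3 receptors, the calcium channels opened by IP3, 0 passed. Itpr2, the most abundant, was at 406, 390 and 354 CPM in the wild type libraries, against 591, 464 and 470 CPM in the knockouts (log2 fold change 0.41, SE 0.25). Itpr3 was at 7.22, 31.6 and 35.1 CPM and 41.1, 40.5 and 64.8 CPM (0.99, SE 0.60). In both, all knockout libraries lay above all wild type libraries, as for 4.74% of the genes tested. Itpr1 was at 39.4 ± 2.41 CPM, against 35.5 ± 23.9 CPM in the knockouts, and overlapped.

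Among the genes listed as phosphatases of inositol phosphates and phosphoinositides, 17 of 18 were tested and 0 passed. The list takes in Impad1 and Bpnt1, and the substrate of each gene was not checked. Estimates were below 0 for 15 and above 0 for 2, with a median log2 fold change of −0.31, where 48.2% of all genes tested had estimates below 0. Without IPMK cKO replicate 1 the median was −0.13, so part of this tilt rests on 1 library. How many estimates lie below 0 without that library was not counted. The inositol monophosphatase Impa2, which returns free inositol, was at 23.3, 14.3 and 23.1 CPM in the wild type libraries, against 2.25, 10.1 and 0 CPM in the knockouts (log2 fold change −2.30, SE 1.40). Its groups did not overlap, which held for 1 of the 17 phosphatases, a share near the 5.66% of all genes tested. Impa1, of the same activity, was at 66.3 ± 25.7 CPM and 37.3 ± 16.2 CPM (−0.83, SE 0.46), Inpp5b at 56.4 ± 20.4 and 30.4 ± 13.6 (−0.89, SE 0.51) and Inpp5k at 40.1 ± 5.87 and 27.8 ± 9.79 (−0.52, SE 0.48). The pyrophosphate phosphatases Nudt3 (0.10, SE 0.36) and Nudt4 (0.11, SE 0.40) overlapped, and Nudt10 and Nudt11 were too low to test.

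For inositol itself, 4 of 8 genes were tested and 0 passed, with a median log2 fold change of −0.04. This median has no stable direction, at −0.38 without IPMK cKO replicate 1, −0.27 without wild type replicate 3, 0.08 without wild type replicate 1 and 0.03 without IPMK cKO replicate 3. The synthase Isyna1 was at 0.39 (SE 0.56), the inositol transporter Slc5a3 at 0.15 (SE 0.44), the lipid synthase Cdipt at −0.22 (SE 0.33) and Cds2 at −0.72 (SE 0.56). Of 24 genes of phosphoinositide kinases, 21 were tested and 0 passed, 12 estimates were above 0 and 9 below, and the median was 0.04, with −0.16 to 0.15 when 1 library was left out. It was below 0 without IPMK cKO replicate 1 (−0.06) or 3, and with upper-quartile factors (−0.02) or no factors (−0.09). Pik3r1, a regulatory subunit of phosphoinositide 3-kinase, was at 113, 165 and 147 CPM in the wild type libraries, against 263, 239 and 188 CPM in the knockouts (log2 fold change 0.70, SE 0.29). All its knockout levels lay above all wild type levels, which held for 1 of the 21 genes, a share near the 4.74% of all genes tested. By p-value, Pik3r1 was followed by Pikfyve (−0.88, SE 0.66), Pip4k2b (−0.72, SE 0.54) and Pip5k1c (0.48, SE 0.40). Xpr1, a phosphate exporter whose SPX domain binds inositol pyrophosphates, was at 10.2, 57.9 and 10.2 CPM in the wild type libraries, against 85.4, 67.3 and 55.4 CPM in the knockouts (1.41, SE 0.66). The log2 fold change of Xpr1 was 2.74 without wild type replicate 2 and 0.85 without both libraries numbered 1. Only wild type replicate 2 reached the range of the knockout libraries.

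**Figure D4:**
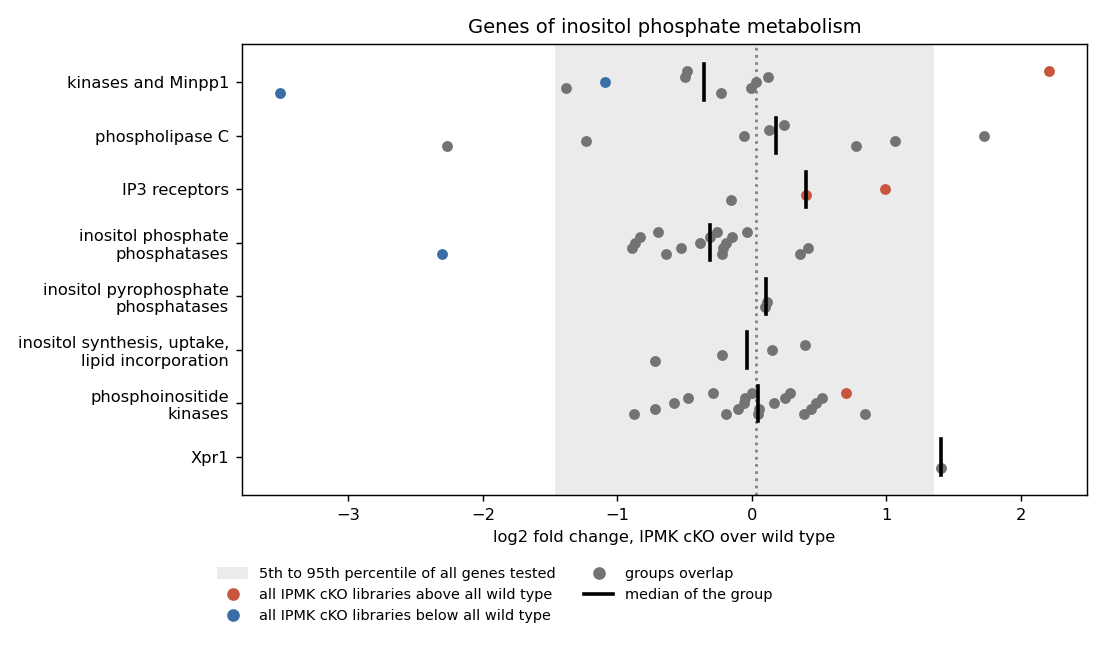
Log2 fold change of IPMK cKO over wild type (horizontal axis) of each tested gene by pathway group (rows), with the group's median (black bar) and the 5th to 95th percentile of all genes tested (grey band, −1.45 to 1.34). Red (higher in IPMK cKO) and blue (lower) points are genes whose groups did not overlap. With all libraries in the fit, phosphatases lie mostly left of 0, a tilt that rests in part on IPMK cKO replicate 1. Ipmk, Ppip5k1, Impa2 and Xpr1 lie outside the band, as do Plcd1 and Plcd4.

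The pattern of Ipmk across the 6 libraries was most like that of Klhl12, among 9171 genes with a mean of at least 5 CPM, by Pearson's r of log2 CPM, given as a description of these libraries. Klhl12, an adaptor of a ubiquitin ligase, had r = 0.996, and Snx2, a sorting nexin, r = 0.993. Lilrb4a, an inhibitory receptor with a near-identical copy that leaves its tags uncertain (0.992), 2610001J05Rik (0.988) and Zfp933 (0.988) followed. The 6 points of Ipmk fall into a wild type and a knockout cluster, which these values share. Lilrb4a was at 29.4, 20.1 and 17.3 CPM in the wild type libraries, against 0.141, 3.14 and 0 CPM in the knockouts, and Klhl12 at 15.5, 8.20 and 12.3 CPM and 0.281, 2.61 and 0 CPM. As with Ipmk, IPMK cKO replicate 2 was the highest of its group in both. This follows largely from choosing these genes by their likeness to Ipmk over the same libraries.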

How the data were processed

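The submitters deposited whole-number counts per gene symbol, 1 file per library, not normalized, per the file headers. RNA was extracted with Trizol and prepared with a Lexogen QuantSeq kit, per the labels' protocols. Per the submitters' processing notes, Bowtie2, edgeR, mm10 and hg19 are named, with no roles stated. Counting program, annotation, strand setting and filters were not given in the sources used here.

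The 10 genes, the pathway lists and the tests were chosen with earlier results of these data known. All 6 libraries were used, grouped by the genotype label. edgeR 4.0.16 in R 4.3.3 was fitted over all genes: filterByExpr (minimum 10 counts) kept 10475, library sizes were scaled by TMM, and glmQLFTest p-values were adjusted by Benjamini-Hochberg with a threshold of 0.05. The SE is the estimate over the square root of F, and the 95% interval uses the test's degrees of freedom. log2 CPM used a prior count of 2. In each file 35 symbols stood in 79 entries, which were kept apart. The fit was tested on simulated counts with the dispersion of these libraries, in which 200 genes of at least 5 CPM were changed. It called 0% of 2-fold, 29.5% of 4-fold and 60% of 8-fold changes. These rates pool genes of all levels from 5 CPM up, and rates for genes as low as Ipmk were not taken apart. Ipmk, at 12.1 CPM in wild type and a wild type over knockout ratio of 11.5, was not called. A gene that was not called may therefore still have changed. Named genes were all members, the paralogs, IP3 receptors and pyrophosphate phosphatases, up to 4 genes with the smallest p per other list, and the 5 most like Ipmk. Rn45s was also named. Markers of other cell types were summed per library. Trac, among the Treg and CD4 markers, was not analysed here, and 1 gene each of the B cell and phosphoinositide lists is not reported here.

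An exact permutation test of any single gene, 3 against 3 libraries, cannot go below p = 0.1. That value was reached by Ipmk and by total counts, two-sided, with adjusted p = 0.2 over 4 measures, while Rn45s share gave 0.6. Floors of 3 counts cover counting error only. Coding motifs were read from GENCODE M21 (mm10), using the longest coding sequence per gene; no protein sequences were used. Alternatives were DESeq2 1.42.0, limma-voom (limma 3.58.1), other size factors, other filters, the replicate number as a block, a threshold of 0.1 and leaving out each library. Leaving out both libraries numbered 1 was added after seeing the data.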

Additional observations from a re-analysis of the deposited data

How the results depend on the processing

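Under 15 alternative settings no member was called. Ipmk, Itpk1, Ippk, Ppip5k1 and Ppip5k2 kept their direction in all 15, with log2 fold changes of −5.85 to −2.92 for Ipmk and 1.08 to 2.56 for Ppip5k1. DESeq2 called 4 genes in all, and leaving out 1 library gave 0 to 1. The 1 was Gdpd3 (log2 fold change −5.40), found when IPMK cKO replicate 1 was left out, and it was also the 1 called without both libraries numbered 1. The median of the members other than Ipmk was −0.55 with limma-voom, −0.53 with the replicate number as a block, 0.043 without both libraries numbered 1, and −0.59 to 0.030 when 1 library was left out. Members lower without overlap, the targeted Ipmk among them, numbered 2 to 4 with 1 library left out. In those settings 8.79% to 14.2% of all genes were lower without overlap (14.2% in the setting with 4). Without both libraries numbered 1 there were 4 such members, against 16.9% of all genes.

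Estimates near 0 changed sign. Ip6k1 was at −0.014 with upper-quartile factors and −0.057 without factors, and −0.14 to 0.22 with 1 library left out. Ip6k2 was at 0.0090 with DESeq2, 0.0082 with RLE factors, 0.043 without both libraries numbered 1 and −0.60 to 0.30 with 1 left out. Itpkb was at 2.22 with limma-voom, 1.07 with the replicate block, −0.55 without both libraries numbered 1 and −0.47 to 1.34 with 1 left out, Itpkc at 0.30 without both, and Minpp1 at 0.29 without both and −1.59 to 0.18 with 1 left out. The cause was not tested. With the replicate block 0 genes were called. Same-numbered libraries deviated together only weakly (r = 0.05, 0.09 and 0.03). Values for libraries of unlike number were all below 0 (r = −0.061 to −0.0011). Deviations were taken from each group's own mean, so values above 0 at like numbers pull the others below 0. The main fit did not take the numbers as pairs, and these values do not settle whether they are. The 95% intervals of Itpkb and Itpkc, −3.03 to 3.27 and −5.43 to 2.66, reach several-fold either way.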

Other observations

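Of 19 pathway genes that were too low to test, 9 had a tag, 6 of them only in libraries numbered 2. Among the 6, Plcg2 had 1 tag and Cds1 had 2, both in IPMK cKO replicate 2. The share of all low genes with tags only in those libraries was not counted, so the 6 cannot be set against it. The genes described here were chosen after their values were seen. Pik3r3, a regulatory subunit of phosphoinositide 3-kinase, had 42 tags in wild type replicate 2, 54 in IPMK cKO replicate 2, 1 in wild type replicate 3 and 0 in the other libraries. Nudt10 and Nudt11, near-identical pyrophosphate phosphatase genes whose tags are uncertain as to gene, had 21 and 26 tags in IPMK cKO replicate 2 and 0 elsewhere. Plcz1, a phospholipase C of sperm, had 14 tags and Itpka 7 in wild type replicate 2 and 0 in the others. Other genes went the other way. Plce1, a phospholipase C, had 37 tags in IPMK cKO replicate 1 and 14 in replicate 3, against 5 and 4 in the libraries numbered 2, and the lipid kinase Pi4k2b had 46 in wild type replicate 1 against 18 and 7. The libraries numbered 2 had the most genes with a count, 12526 and 12096 against 10311 to 11292. The cause was not tested.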
